A study of Mus musculus with 6 samples.

Results

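The rows described here are those of the mouse miR-181 genes in a small RNA sequencing study of the heart. They were found by matching the Ensembl identifiers of the deposited table to the GENCODE M21 annotation (mouse genome build GRCm38) and keeping every gene whose symbol begins with Mir181. Of the 6 miR-181 genes in the annotation, 2 had a row, Mir181a-1 and Mir181a-2, out of 134 rows of the class miRNA and 10065 rows in all. The 2 genes were chosen by measured values, since both had a low unadjusted P in the authors' own comparison of the genotypes, besides giving the same mature miRNA. The columns of that comparison were not used here, so the values below are levels over all hearts and say nothing of a difference between genotypes.

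Whole hearts were taken at postnatal day 6 from 3 mice that lack both copies of Adarb1, the gene of the RNA editing enzyme ADAR2 (labelled Adarb1-/-, Gria2R/R), and from 3 mice labelled wild type, all on the SV129 background. By the study's methods, animals of both genotypes were female siblings and carried Gria2R/R, a glutamate receptor gene that already encodes the edited form and rescues the early death of ADAR2-deficient mice. A whole heart holds muscle, vessel, connective tissue and blood cells together, and fewer cells of a type cannot be told apart from less RNA per cell. For each gene the deposited table gives 1 level, the authors' mean of read counts over all samples after division by a size factor per library (mean normalized count), with no value per animal. How the animals varied is unknown, and of depth the paper states only a minimum number of reads per sample. No error or test therefore accompanies any level. All 10 genes of a cardiomyocyte marker list had a row, with means from 4.82 (Tnnt2, cardiac troponin T) to 938 (Mir208b, carried by a cardiac myosin gene). Markers of other cells were also listed, the endothelial Mir126a at 675, the smooth muscle Mir143 at 289 and Mir145a at 20.4, and the erythroid Mir144 at 31.4 and Mir451a at 15.1. Of 4 lymphocyte and myeloid miRNA genes, Mir150 had a mean of 4.26 and Mir142 one of 2.76, while Mir223 and Mir155 had no row. miR-181a is itself abundant in lymphocytes, and the part of any one cell type in its level was not tested.

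A miRNA gene is transcribed as part of a longer RNA, from which Drosha cuts a hairpin and Dicer1 then cuts a short duplex. One strand of the duplex, named 5p or 3p after its arm of the hairpin, is loaded into an Argonaute protein and guides it to messenger RNAs, mainly through the seed, bases 2 to 8 from its 5′ end. The miR-181 family is best known from lymphocyte development, where miR-181a tunes the strength of T cell receptor signalling, and its members are also studied in vessel walls and heart muscle. ADAR2 converts adenosine to inosine in double-stranded RNA, and miRNA hairpins are among the RNAs that such enzymes can edit.

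The genes form 3 clusters, in each of which 2 hairpins lie close together on the same strand. Mir181a-1 (ENSMUSG00000065565) covers 87 bases on the plus strand of chromosome 1, from 137966455 to 137966541 in GRCm38, and Mir181b-1 begins after a gap of 97 bases. Mir181a-2 (ENSMUSG00000065423) covers 76 bases on the plus strand of chromosome 2, from 38852735 to 38852810, and Mir181b-2 begins after a gap of 1019 bases. The third cluster, on the minus strand of chromosome 8, holds Mir181c and Mir181d with a gap of 85 bases. Only the first gene of each miR-181a cluster had a row, and Mir181b-1, Mir181b-2, Mir181c and Mir181d had none, so cluster mates could not be compared in level. The smallest mean in the whole table was 1.09 and the smallest among miRNA rows was 1.63, but which rule decided whether a gene was listed is not given in the sources used here.

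**Figure D1:**
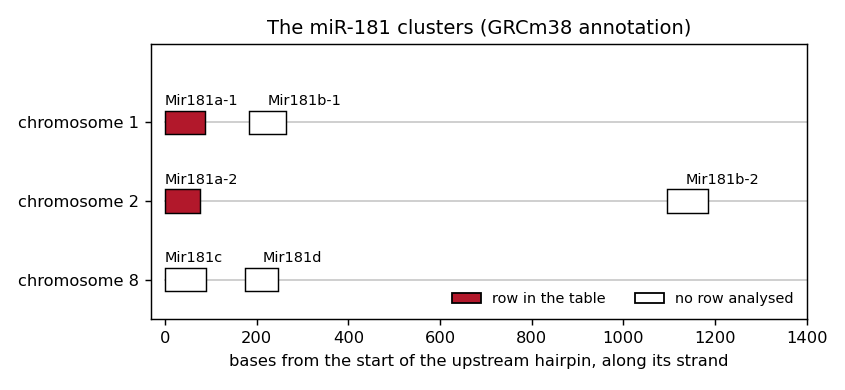
Position of the 6 miR-181 hairpins in their clusters on chromosomes 1, 2 and 8, in bases along the strand from the start of the upstream hairpin. Filled boxes are the 2 genes with a row in the table and open boxes the 4 without one; the gap is 97 bases on chromosome 1 and 1019 bases on chromosome 2.

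The mature 5p sequences show how the genes relate, and are given from RefSeq (GRCm38.p6) with the seed in capitals, 5′ to 3′.
miR-181a-5p (from Mir181a-1 and from Mir181a-2): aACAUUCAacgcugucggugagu
miR-181b-5p (from Mir181b-1 and from Mir181b-2): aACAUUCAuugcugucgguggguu
miR-181c-5p (from Mir181c): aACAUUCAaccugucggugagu
miR-181d-5p (from Mir181d): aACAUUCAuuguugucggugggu
All 4 share the seed, and among the 1738 mature miRNA entries of the RefSeq table no gene outside these 6 had it. Counted from the 5′ end, miR-181b-5p differs from miR-181a-5p by A9U, C10U and A21G and has 1 base more at its end. miR-181d-5p carries those substitutions and C12U. Leaving out base 11 of miR-181a-5p gives the sequence of miR-181c-5p. The differences all lie outside the seed.

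The 3p arms are what sets the genes of the 2 loci apart as mature products, again with bases 2 to 8 in capitals.
miR-181a-1-3p: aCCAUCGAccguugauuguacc
miR-181a-2-3p: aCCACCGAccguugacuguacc
These 22-base sequences differ at 2 positions, by U5C and U16C, the first of which lies in the seed. miR-181c-3p shares 15 bases in a row with miR-181a-1-3p and 10 with miR-181a-2-3p. By exact match, a read of a whole 3p arm has 1 gene, while a read of the 23-base 5p arm has both. A read that is shorter, or mapped with mismatches allowed, may match more than 1 gene on the 3p arm as well.

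The hairpins are shown whole, because what the rows can share depends on them, with both mature sequences in capitals.
Mir181a-1: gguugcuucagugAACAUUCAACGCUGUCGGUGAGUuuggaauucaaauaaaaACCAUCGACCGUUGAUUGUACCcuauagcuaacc
Mir181a-2: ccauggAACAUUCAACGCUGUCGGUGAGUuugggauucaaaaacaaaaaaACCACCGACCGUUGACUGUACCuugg
The longest stretch common to both is 28 bases, gaacauucaacgcugucggugaguuugg, which holds the whole 5p sequence and runs from base 13 to base 40 of the Mir181a-1 hairpin and from base 6 to base 33 of the Mir181a-2 hairpin. Of the 70 windows of 18 bases in the Mir181a-1 hairpin and the 59 in that of Mir181a-2, 11 were shared. No other hairpin among the 1003 further ones in the RefSeq table shared 18 bases with either, and the longest stretch shared with any of them was 10 bases. That table gives no hairpin for Mir181c, whose GENCODE transcript of 89 bases shared a stretch of 17 bases with each miR-181a hairpin, the longest found outside the pair. In 141767 GENCODE transcripts, the 5p sequence was found in the transcripts of these 2 genes only, on either strand, and each 3p sequence in that of its own gene only. Folded with ViennaRNA, the Mir181a-1 hairpin had 30 base pairs and a minimum free energy of -29.1 kcal/mol, and the Mir181a-2 hairpin 25 base pairs and -28.8 kcal/mol. In each predicted fold 18 of the 23 bases of the 5p arm were paired. Of the adenosines, 14 of 25 were paired in the Mir181a-1 hairpin and 11 of 24 in the Mir181a-2 hairpin. Editing of these bases was not measured in the table.

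**Figure D2:**
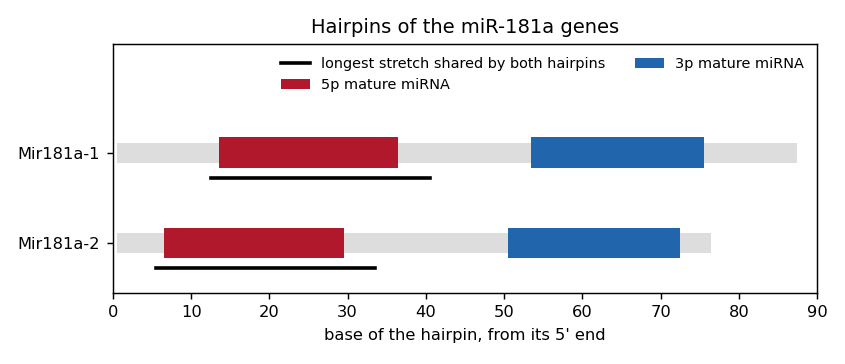
Map of the Mir181a-1 and Mir181a-2 hairpins in bases from the 5′ end, with the 5p and 3p mature sequences as coloured boxes and the longest common stretch as a black line. The line of 28 bases covers the 5p box in both hairpins and does not reach the 3p box.

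The levels of the 2 rows lay close together. The authors' mean normalized count, taken over hearts of both genotypes, was 12.9 for Mir181a-1 and 12.2 for Mir181a-2. The mean of Mir181a-1 was higher by 0.716, or 1.06-fold. Per length of hairpin the order turned, with a mean of 14.9 per 100 bases for Mir181a-1 and 16.1 per 100 bases for Mir181a-2, or 1.08-fold more for the latter. The turn follows from the annotated hairpin lengths of 87 and 76 bases, while the mature sequences of both genes have equal lengths. It is therefore no sign of more reads from Mir181a-2. Of the summed mean of both rows, 25.2, Mir181a-1 held 51.4% and Mir181a-2 held 48.6%. How reads with several matches were counted is not given in the sources used here. Reads of the common 5p arm match both genes, so, depending on that counting, the rows may hold the same reads, and the sum may count such reads on each gene. What part of each mean came from the 5p arm, the 3p arm or the rest of the hairpin cannot be read from the table. Without values per sample, whether the 2 levels differ beyond the spread between animals was not tested.

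Among the 134 miRNA rows both genes stood in the upper middle. Mir181a-1 ranked 49 by mean, with 35.8% of the rows above it, and Mir181a-2 ranked 52, with 38.1% above it. Ranked by the mean per length of hairpin, Mir181a-1 was again at 49 and Mir181a-2 at 46. The median of the miRNA rows was 7.64, with a lower quartile of 3.66 and an upper quartile of 22.5, so Mir181a-1 stood at 1.69 times the median and Mir181a-2 at 1.6 times. The highest row, Mir208b, had 72.4 times the mean of Mir181a-1. Each miR-181a gene held under 1% of the summed mean of miRNA rows, 0.237% for Mir181a-1 and 0.224% for Mir181a-2. All miRNA rows together held only 2.55% of the summed mean of all rows, so these shares and ranks are within a small part of the counts. The sums and the median take every row, also rows with identical means, such as Mir126a and Mir126b at 675 each. With identical means collapsed, 118 miRNA rows remain, and the shares and the median were not computed for those. A mean of at least 10 was found for 56 of the miRNA rows, both miR-181a genes among them.

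**Figure D3:**
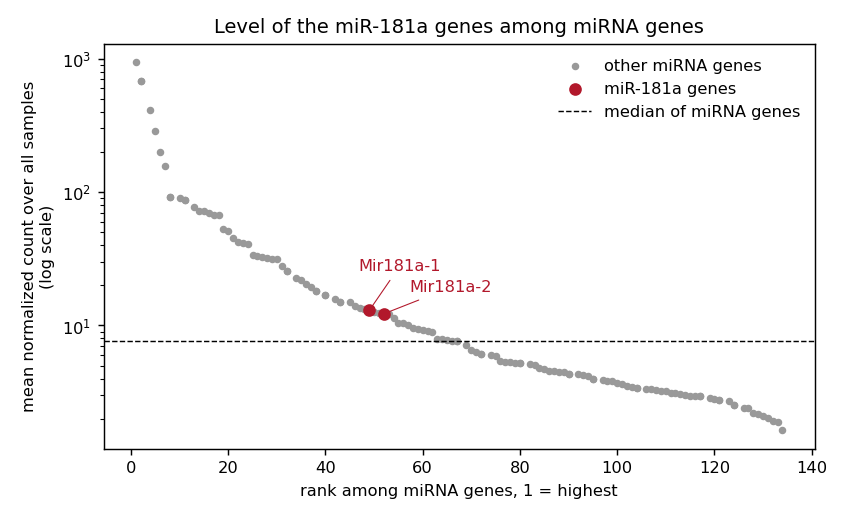
Mean normalized count over all samples (log scale) of each of the 134 miRNA rows against its rank, with the miR-181a genes in red and the median of 7.64 as a dashed line. Mir181a-1 at 12.9 and Mir181a-2 at 12.2 lie above the median and far below the top rows.

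Just above Mir181a-1 in mean were Mir21a at 13.4, Mir30d at 13.6 and Mir322 at 14.1. miR-21a is a miRNA of growth and fibrosis, and miR-322 is the mouse relative of human miR-424. The 2 rows between the miR-181a genes were Mir378c at 12.6 and Mir149 at 12.3. Just below Mir181a-2 lay Mir199b at 12.2, Mir148a at 11.3 and Mir199a-1 at 10.5. The closest row of all was Mir199b, at a distance of 0.00044 from Mir181a-2 in log2 of the mean, while the miR-181a genes were 0.082 apart on that scale. This likeness rests on 1 mean per gene, over hearts of both genotypes, and not on a pattern across samples.

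Other pairs of genes show how near to each other the means of such twins lay in this table. Of the miRNA rows whose symbols differ only in the last number, and which by that naming give the same or nearly the same mature miRNA, 13 pairs had both rows, counting pairs of opposite strands with identical means once. The miR-181a pair, at 1.06-fold, was number 4 in closeness, with 3 of the 12 other pairs closer and 9 wider apart. The closer ones were Mir133a-2 and Mir133a-1 (67.4 and 67.1), Mir1a-2 and Mir1a-1 (91.2 and 90.5), and Mirlet7a-2 and Mirlet7a-1 (52.5 and 51.1). The other 12 pairs had a median ratio of 1.11 and reached 1.69 for Mir125b-1 and Mir125b-2 (32.6 and 19.3). Per length of hairpin, 3 of the other pairs were closer and 9 wider apart, up to 1.72-fold, but the pairs were not the same. The closer ones were then Mirlet7a (1.01-fold), Mirlet7f (1.06-fold, Mirlet7f-1 and Mirlet7f-2) and Mir1a (1.08-fold), while the Mir133a pair, the nearest in mean, lay 1.52-fold apart (Mir133a-2 and Mir133a-1). For the Mir133a pair, with nearly equal means, that distance comes from unequal annotated hairpin lengths. Means as near as those of the miR-181a rows were thus found for other twin genes too. Whether it was due to reads counted on both genes was not tested.

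**Figure D4:**
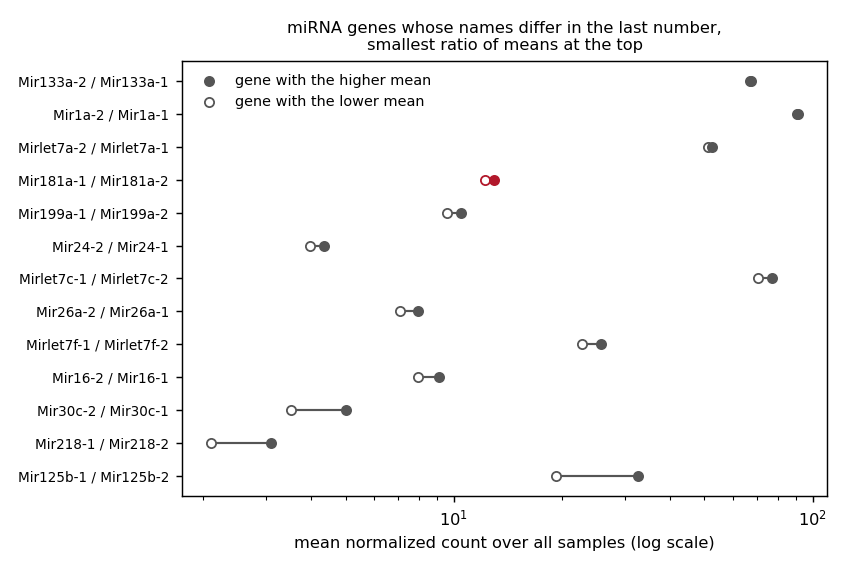
Mean normalized count over all samples (log scale) of the 13 pairs of miRNA genes whose names differ in the last number, the higher gene filled and the lower gene open, with the pair of smallest ratio at the top. The miR-181a pair in red is number 4 from the top, at 12.9 and 12.2, and the Mir125b pair at the bottom is the widest, at 32.6 and 19.3.

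The genes that overlap the 2 loci differ. In the annotation, Mir181a-1 lies in an intron of Gm4258, a noncoding transcript on the same strand (chromosome 1, 137898595 to 138000384), whose mean was 25.0. It lies as well in an intron of Gm26936, a lincRNA gene on the opposite strand, whose mean was 20.9. The last bases of its hairpin reach into an exon of the lincRNA gene A430106G13Rik, which covers all of Mir181b-1 and had no row. Mir181a-2 lies in an intron of Nr6a1, a protein-coding gene for an orphan nuclear receptor, on the opposite strand (chromosome 2, 38723370 to 38927688), whose mean was 24.6. No gene on the same strand overlaps Mir181a-2 in this annotation. Gm4258 and Nr6a1 span 101790 and 204319 bases, so 0.0246 and 0.012 normalized counts per 100 bases lay on them, against 14.9 and 16.1 per 100 bases on the miR-181a hairpins they contain. These spans include introns, and how reads of introns, of hairpins and of the opposite strand were counted is not given in the sources used here. Mir24-1 and Mir3074-1, which lie on opposite strands, had the same mean of 3.97. That pair of short genes does not show how reads within the long genes were counted. Whether the means of the long genes hold reads of the hairpins within them, on either strand, was not tested.

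Of 10 genes that make or use mature miRNAs, 6 had a row in these libraries of short RNA. The nuclease Drosha had a mean of 11.7, the Dicer partner Prkra one of 25.1 and the Argonaute genes Ago2, Ago3, Ago4 and Ago1 means of 22.8, 8.88, 4.86 and 2.02. Dgcr8, Xpo5, Dicer1 and Tarbp2 had no row. Which part of each gene these short reads came from was not examined, and the means were not set against the levels of the miR-181a genes.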

How the data were processed

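The study sequenced small RNA of hearts, 3 from ADAR2-/- and 3 from wild-type mice. By the paper's methods, adaptors were removed with Cutadapt, reads were mapped with Bowtie and genotypes were compared with DESeq, and the submitters' processing notes name the build mm9. A further passage of the methods describes mapping to mature microRNA sequences with NextGenMap, with some mismatches allowed. The table also lists protein-coding and lincRNA genes, which mapping to mature microRNA sequences alone would not give. Its rows thus fit the mapping to the genome, while the rule for counting reads per gene is not given in the sources used here. The authors deposited 1 table, whose signal used here is the mean of size-factor normalized counts over all samples. That it covers exactly these 6 libraries is read from the column's name and could not be checked. Its other 6 numeric columns hold the authors' own comparison (fold changes before and after shrinkage, standard error, statistic, P and adjusted P) and were not used. The table has no coordinates. Identifiers were matched to GENCODE M21 (GRCm38; 10005 of 10065 found), whose coordinates are printed, and none were converted.

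Ranks, ratios and means per 100 bases of annotated hairpin were computed in Python 3.11.15 with pandas 2.3.3 and numpy 2.4.6. Sequences came from RefSeq (GRCm38.p6), in which hairpins of both miR-181a genes and mature sequences of all 6 genes matched by symbol. Common stretches and windows of 18 bases were found by exact match, and folds with ViennaRNA 2.7.2 at default settings. The sequence and rank functions were tested on simulated data. The genes named were the miR-181 genes, genes overlapping the miR-181a loci, the 3 nearest miRNA rows on each side, genes with the seed, and lists of markers and of miRNA processing genes. The members and lists were chosen with earlier results of these data known, and the comparison of twin genes was added after the means were seen. Precision is limited by the number of animals, and the depth of each library is unknown beyond the minimum that the paper states.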

Additional observations from a re-analysis of the deposited data

How the results depend on the processing

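The percentage of miRNA rows with a higher mean was 35.8 for Mir181a-1 and 38.1 for Mir181a-2. With rows named Mir only it was 36.6 and 39.3, with identical means collapsed 34.7 and 37.3, and per hairpin length 35.8 and 33.6. Among rows whose mean reached 10 it was 85.7 and 91.1, which follows from leaving out the 78 rows with lower means. The ratio of Mir181a-1 to Mir181a-2 turned from 1.06 to 0.925 per hairpin length, and the share of Mir181a-1 in their sum from 51.4% to 48.0%, which follows from the hairpin lengths of 87 and 76 bases. No paired analysis was possible because the file gives only 1 mean per gene over all animals, and the genotype comparison, the replicate block and leaving out each replicate were not run for the same reason. With means near 12 and no depth per library or spread, small differences in level between rows cannot be read.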
